A study of Mus musculus with 26 samples.

Results

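Wild-type (WT) S49 cells, a mouse T-lymphoma cell line, were compared between 24 h and 2 h of exposure to 100 µM 8-CPT-cAMP, a cell-permeable analog of cyclic AMP (cAMP). The aim of setting these times against each other was to separate genes whose early change was transient or reversed from genes that changed late only. The comparison used 10 of the 26 arrays of the series, namely 3 WT arrays at 24 h, 3 WT arrays at 2 h and 4 untreated WT arrays as the 0 h level. The 3 WT arrays at 6 h and the arrays of Kin- cells, S49 cells without active protein kinase A (PKA), were set beside them; the Kin- groups had 3 arrays at 24 h, 3 at 2 h and 3 at 6 h with the analog and 4 untreated arrays. All groups are cultures of 1 lymphoma line or its variant, the untreated arrays are all from 0 h, and the labels do not state whether cultures were grown separately for each array, so p-values measure the spread between arrays, which may be technical. Each array reports 22626 probe sets, of which 20380 carry a single gene symbol and cover 12393 genes.

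Cyclic AMP acts in lymphocytes mainly through PKA, which phosphorylates the transcription factor CREB at cAMP response elements (CRE) in promoters. CREB targets include immediate-early genes, whose transcripts are short-lived, and repressors such as the ICER product of Crem, phosphatases and RGS proteins that dampen the pathway. In WT S49 cells sustained cAMP is known to arrest the cycle in G1 and later to kill the cells, and Kin- cells are known to resist both.

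The square root of the deposited values was used as a log2-like level, so levels and differences below are in square-root units and 1 unit may not be an exact doubling. A difference counted as passed at a limma adjusted p under 0.05. Genes were sorted by 3 WT differences: 2 h minus 0 h, 24 h minus 0 h and 24 h minus 2 h. A transient gene changed by at least 1 unit at 2 h, moved back by at least 1 unit, and did not pass at 24 h against 0 h. A reversed gene passed at 2 h and at 24 h with opposite signs and moved by at least 1 unit between them. A late only gene did not pass at 2 h and then changed by at least 1 unit, both from 2 h and from 0 h. These rules found 1001 of the 12393 genes, with no filter on low levels. WT values of these genes therefore describe how they were chosen and carry no test of their own. The Kin- and 6 h means were not used by the rules, but all 26 arrays gave the pooled spread behind each call. With the spread from the 13 or the 10 WT arrays, rises that became falls numbered 30 and 28 in place of 46.

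Between 24 h and 2 h, 1930 genes were higher (15.6%) and 1901 lower (15.3%) in WT cells. In the earlier step, 2 h against 0 h, 898 genes were higher (7.25%) and 1046 lower (8.44%). At 24 h against 0 h the counts were 2016 higher (16.3%) and 2017 lower (16.3%). At 6 h against 0 h 1369 were higher (11%) and 1381 lower (11.1%). These differences were drawn from the same arrays, so they are not independent of one another. Of the genes higher at 2 h, 333 were lower again between 24 h and 2 h, 175 were higher still and 390 did not pass. Of the genes lower at 2 h, 487 were higher between 24 h and 2 h, 172 were lower still and 387 did not pass. A further 1268 genes rose and 1396 fell between 24 h and 2 h without having passed at 2 h.

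With the size limits, 30 genes rose transiently (0.242% of genes) and 49 fell transiently (0.395%). A partial return, in which the gene moved back by at least 1 unit but still passed at 24 h on its early side, was seen for 15 risen genes (0.121%) and 4 fallen genes (0.0323%, or 8 genes with the array series as a replicate block). Reversal took 46 genes from a rise at 2 h to a fall at 24 h (0.371%) and 121 genes the other way (0.976%). Late only rises numbered 388 (3.13%) and late only falls 367 (2.96%). For contrast, 70 genes had a rise that grew by at least 1 unit (0.565%) and 36 a fall that grew (0.29%), while 119 rises (0.96%) and 59 falls (0.476%) of at least 1 unit at 2 h still passed at 24 h on the same side, with no passed difference between 24 h and 2 h. The 24 h and 2 h arrays did not overlap for 35.8% of all genes. They overlapped for none of the 30 transient rises, 49 transient falls, 46 rises that became falls or 121 falls that became rises, which the rule makes likely. Late only genes, 755 in all, outnumbered the 79 transient and 167 reversed genes. Late only means that the difference at 2 h did not pass, not that the level was unchanged. The 2 h and 0 h arrays did not overlap for 38 of the 388 late only rises and 92 of the 367 late only falls. That share was not counted over all genes.

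**Figure D1:**
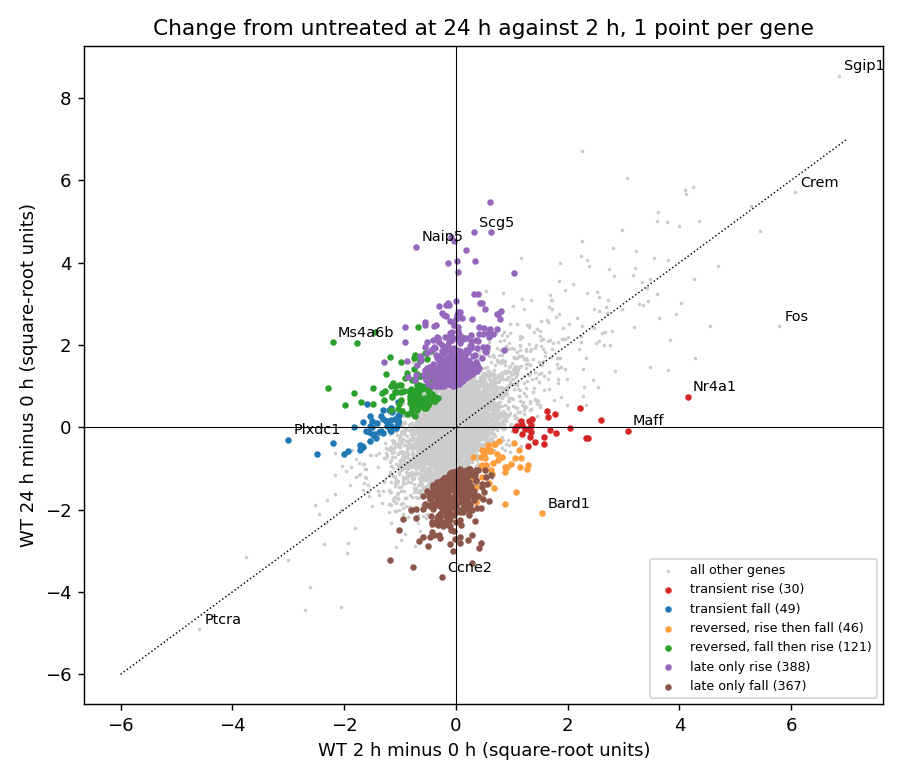
Change from 0 h in WT cells at 24 h (vertical axis) against 2 h (horizontal axis), in square-root units, with 1 point per gene and numbers of genes in the legend. The dotted line marks equal changes; late only genes lie above and below the centre, transient genes lie along the horizontal axis, and Nr4a1, at 4.14 on the horizontal axis, lies far to the right of the other transient rises.

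The transient rises were led by Nr4a1, an orphan nuclear receptor of the immediate-early class that is linked to thymocyte death. Its level was 8.83, 8.16, 7.14 and 8.40 at 0 h, 12.52, 12.24 and 12.07 at 2 h, 9.94, 10.29 and 10.66 at 6 h, and 8.81, 8.86 and 8.96 at 24 h. Every 2 h array lay above every array at the other times, the 6 h arrays lay between, and the 24 h arrays sat close to the highest 0 h array. Nr4a1 fell by 3.40 ± 0.39 (SE; limma adjusted p = 6.36e-07) between 24 h and 2 h, after a rise of 4.14 at 2 h. Maff, a small MAF bZIP factor, had levels of 2.74, 2.73, 2.64 and 2.85 at 0 h, 4.79, 6.61 and 6.03 at 2 h, 3.03, 2.89 and 3.13 at 6 h, and 2.46, 2.77 and 2.74 at 24 h. At 6 h its mean was 0.28 above 0 h (limma adjusted p = 0.594). Tinf2, a subunit of the telomere-capping shelterin complex, had levels of 8.91, 8.74, 8.41 and 8.57 at 0 h, 10.85, 11.32 and 10.89 at 2 h, and 8.42, 8.15 and 8.58 at 24 h. Gsk3b, a kinase that marks Myc and cyclin D for degradation, had levels of 7.28, 7.03, 6.93 and 7.49 at 0 h, 9.52, 9.09 and 9.91 at 2 h, and 6.96, 6.83 and 6.98 at 24 h. In both genes the 2 h arrays stood clear of all others.

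Other transient rises had varied roles. Hexim1, an inhibitor of the elongation factor P-TEFb, fell back by 1.93, and Nup98, a nucleoporin, by 2.05. Socs1, an inhibitor of JAK kinases, stood at 3.52, 3.20, 3.83 and 3.58 at 0 h, 5.05, 5.13 and 5.30 at 2 h, and 3.80, 3.87 and 4.11 at 24 h, a small rise at a low level. Bcl6, a lymphocyte repressor, fell back by 1.98; without the 2 h array numbered 37 it kept no pattern. The cholesterol carrier gene Stard4 and the mevalonate pathway gene Pmvk, 2 of 25 measured cholesterol genes, fell back by 1.56 and 1.34. Second probe sets of Bcl6 (−0.43) and Stard4 (−0.40) did not pass between 24 h and 2 h (limma adjusted p of 0.054 and 0.237). The median of the 30 transient rises was 1.38 at 2 h, 0.64 at 6 h and −0.04 at 24 h, each against 0 h. At 6 h, 27 of the 30 lay between their 2 h and 24 h means.

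Partial returns included well-known immediate-early genes. Fos, a subunit of the AP-1 transcription factor, had levels of 3.46, 3.29, 3.13 and 4.49 at 0 h, 9.52, 8.87 and 9.74 at 2 h, 7.29, 8.50 and 7.95 at 6 h, and 6.71, 5.51 and 5.92 at 24 h. It fell by 3.33 ± 0.42 (SE; limma adjusted p = 2.38e-06) between 24 h and 2 h, and its 24 h arrays remained above all 0 h arrays. Zfp36, which encodes the mRNA decay factor tristetraprolin, had levels of 6.73, 6.72, 6.71 and 6.64 at 0 h, 10.44, 10.51 and 10.52 at 2 h, and 7.64, 8.20 and 8.41 at 24 h. Ppp1r15a, a phosphatase subunit that reverses the translation block of the stress response, had levels of 6.78, 6.23, 6.10 and 6.78 at 0 h, 9.94, 10.55 and 10.40 at 2 h, and 8.41, 8.64 and 8.73 at 24 h. Of its rise at 2 h, Fos kept 42.5% at 24 h, Zfp36 36.5% and Ppp1r15a 55.5%. Sgtb, a co-chaperone, had levels of 3.08, 3.36, 2.83 and 3.08 at 0 h, 7.22, 7.45 and 7.43 at 2 h, and 4.57, 5.57 and 4.20 at 24 h. The clock gene Per1 fell back by 1.44 and was still 0.54 above 0 h (limma adjusted p = 0.0168); it became transient without array 16, 19 or 39.

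Among interferon-linked genes, Irf1, a transcription factor of the interferon response, had levels of 8.87, 8.73, 8.62 and 8.47 at 0 h, 10.27, 11.34 and 11.77 at 2 h, and 9.10, 10.14 and 10.25 at 24 h. Irgm2, an immunity-related GTPase, had levels of 4.66, 4.64, 4.73 and 4.58 at 0 h, 7.31, 9.67 and 10.60 at 2 h, and 6.02, 7.52 and 7.78 at 24 h. The lowest 2 h array of Irgm2 lay below the highest 24 h arrays, and its call for 24 h against 2 h (limma adjusted p = 0.0235) was lost without array 17, 37 or 4 (adjusted p between 0.0901 and 0.172, changes of −1.85, −1.38 and −1.54). Irf1 lost its partial return without array 37 or 4. Socs1, Irf1 and Irgm2 were also 3 genes that missed the threshold in the test of the WT against the Kin- change between 24 h and 2 h (limma adjusted p of 0.0699, 0.065 and 0.196).

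Upstream sequences are shown for Nr4a1, Fos and Dusp1 as examples of genes that rose by 4 units or more at 2 h. They then returned, returned in part and stayed high, respectively. Other genes, such as Crem (6.07), Rgs2 (5.45) and Sgtb (4.28), also rose by 4 units or more and are not shown. The matches in the examples therefore do not stand for all such genes. The sequences are the 250 bases before the transcription start in RefSeq for GRCm38.p6, written from 5′ to 3′ on the gene's strand, with the short CRE TGACG or its complement CGTCA in capitals. Nr4a1 lies at chr15:101266596-101266845, plus strand, Fos at chr12:85473640-85473889, plus strand and Dusp1 at chr17:26508473-26508722, minus strand.
Nr4a1: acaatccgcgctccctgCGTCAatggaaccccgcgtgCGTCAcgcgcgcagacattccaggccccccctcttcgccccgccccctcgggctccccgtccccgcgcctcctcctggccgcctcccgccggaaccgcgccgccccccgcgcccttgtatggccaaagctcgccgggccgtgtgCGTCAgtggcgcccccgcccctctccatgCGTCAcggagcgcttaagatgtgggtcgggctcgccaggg
Fos: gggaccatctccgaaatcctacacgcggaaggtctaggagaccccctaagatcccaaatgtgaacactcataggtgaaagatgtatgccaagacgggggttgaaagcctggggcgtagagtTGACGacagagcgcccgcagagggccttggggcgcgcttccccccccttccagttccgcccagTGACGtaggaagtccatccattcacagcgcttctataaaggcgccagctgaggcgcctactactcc
Dusp1: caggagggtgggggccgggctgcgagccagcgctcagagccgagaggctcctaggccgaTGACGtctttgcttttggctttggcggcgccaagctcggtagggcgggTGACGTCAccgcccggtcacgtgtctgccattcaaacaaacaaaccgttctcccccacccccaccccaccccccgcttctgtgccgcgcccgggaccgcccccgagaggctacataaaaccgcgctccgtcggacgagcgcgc
Nr4a1 held 4 matches, at −233, −213, −69 and −40 from the start site. Fos held 2, at −129 and −66. Dusp1 held matches at −191, −143 and −140, of which the overlapping pair forms the full palindrome TGACGTCA.

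The short CRE was then counted in 1 window per gene, from 250 bases before to 50 after the start, on both strands. A window was found for 9887 of the 12393 genes. TGACG was held by 13 of the 24 transient rises with a window (54.2%), by 7 of 12 partial returns of a rise (58.3%) and by 40 of 94 sustained rises (42.6%). It was also held by 129 of 304 late only falls (42.4%), 17 of 41 rises that became falls (41.5%) and 17 of 47 sustained falls (36.2%), shares like that of sustained rises. Lower shares were those of 89 of 320 late only rises (27.8%), 10 of 37 transient falls (27%) and 23 of 91 genes that fell and then rose (25.3%). It was held by 2806 of the 9887 genes (28.4%) and by 20.8% of all 32851 windows. The full palindrome, which contains TGACG, was held by 3 of the 24 transient rises (12.5%), 2 of the 12 partial returns (16.7%) and 4 of the 94 sustained rises (4.26%) and 15 of the 304 late only falls (4.93%), against 2.75% of all measured genes. These are matches of letters, and nothing here measured binding.

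Among the transient falls, Plxdc1, a membrane protein of endothelium and other cells, had levels of 7.88, 7.76, 7.36 and 6.89 at 0 h, 5.57, 3.52 and 4.33 at 2 h, 6.73, 4.21 and 4.88 at 6 h, and 7.28, 7.17 and 7.05 at 24 h. Its 24 h arrays were back within the 0 h range, and its 2 h and 6 h arrays lay below. Dtx1, a regulator and target of Notch, had levels of 10.16, 9.97, 9.70 and 9.87 at 0 h, 8.99, 8.18 and 7.99 at 2 h, and 10.73, 9.64 and 10.22 at 24 h. Wnt5b, a secreted Wnt ligand, had levels of 9.09, 8.89, 8.16 and 8.05 at 0 h, 7.16, 5.97 and 7.04 at 2 h, and 8.87, 8.31 and 8.52 at 24 h. In both genes no 2 h array reached the lowest 0 h or 24 h array.

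Dusp2, a nuclear phosphatase of MAP kinases, had levels of 7.96, 8.39, 8.41 and 8.05 at 0 h, 7.22, 6.99 and 6.90 at 2 h, and 8.83, 8.83 and 8.34 at 24 h, a fall where its relative Dusp1 rose. Without array 39 at 24 h it counted as reversed. Tap2, a subunit of the peptide transporter that loads MHC class I, rose again by 1.51 ± 0.20 (SE; limma adjusted p = 6.16e-06). Sla, an adaptor that lowers T-cell receptor levels, rose again by 1.80. The median of the 49 transient falls was −1.34 at 2 h, −0.60 at 6 h and 0.03 at 24 h.

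Notch1, the receptor that commits precursors to the T lineage, returned in part. It had levels of 11.11, 11.62, 11.53 and 11.40 at 0 h, 9.04, 9.46 and 9.28 at 2 h, 10.80, 9.93 and 10.22 at 6 h, and 11.23, 10.43 and 10.71 at 24 h. It rose by 1.53 ± 0.20 (SE; limma adjusted p = 3.73e-06) between 24 h and 2 h and was still 0.62 below 0 h; without array 19 or 39 it counted as a transient fall, and a dimmer probe set did not pass between 24 h and 2 h (0.48, limma adjusted p = 0.138). Bid, a BH3-only death protein cleaved by caspase-8, had levels of 10.53, 10.72, 10.52 and 10.40 at 0 h, 8.80, 8.78 and 8.47 at 2 h, and 10.12, 9.87 and 10.02 at 24 h. Its 24 h arrays lay between the 2 h and the 0 h arrays without touching either.

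**Figure D2:**
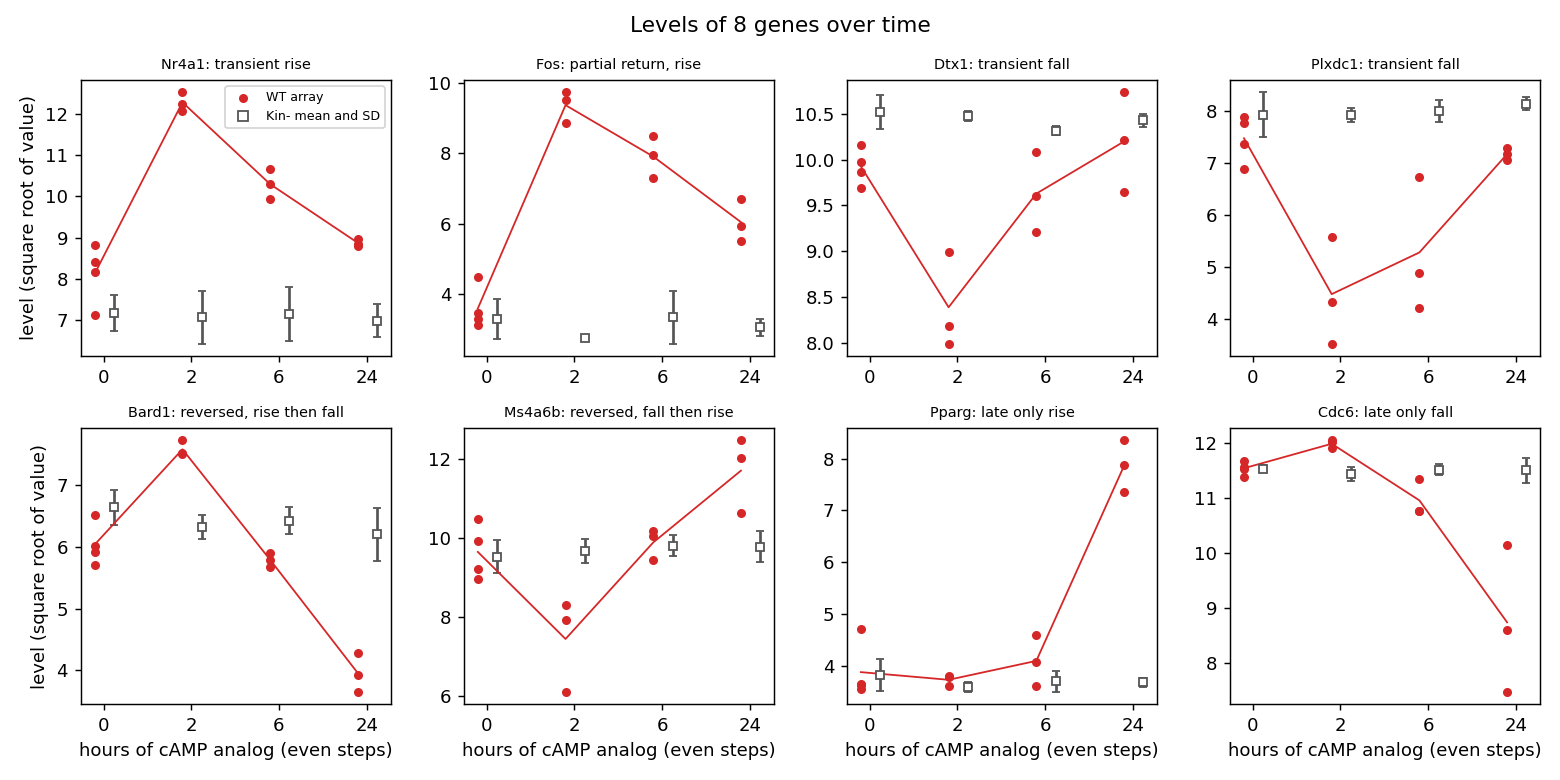
Level (square root of the deposited value) of 8 genes by hours of exposure, with the times evenly spaced: filled points are WT arrays joined by a line through their means, open squares are Kin- means with SD (n = 3, or 4 at 0 h). WT levels bend at 2 h for Nr4a1, Fos, Dtx1, Plxdc1, Bard1 and Ms4a6b and depart after 2 h for Pparg and Cdc6, while Kin- means span at most 0.58 units, in Fos.

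Among the genes that rose at 2 h and ended below 0 h, Bard1, the partner of Brca1 in the ubiquitin ligase of homologous recombination, had levels of 5.91, 6.52, 5.71 and 6.00 at 0 h, 7.50, 7.72 and 7.51 at 2 h, 5.67, 5.90 and 5.79 at 6 h, and 3.93, 3.66 and 4.29 at 24 h. Each 2 h array exceeded every 0 h array by about 1 unit or more, and each 24 h array lay more than 1 unit below them. Bard1 fell by 3.62 ± 0.22 (SE; limma adjusted p = 1.96e-10) between 24 h and 2 h. Brca1 itself had levels of 8.51, 8.75, 9.03 and 8.69 at 0 h, 9.35, 9.74 and 9.75 at 2 h, and 7.27, 6.32 and 7.04 at 24 h. For Brca1, 3 of its 4 probe sets rose by 0.79 to 1.08 at 2 h and had changes of −4.07 to −2.74 in 24 h against 2 h, and the fourth, at a low level, did not pass.

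Mastl, the Greatwall kinase of mitotic entry, had levels of 6.41, 6.24, 6.79 and 6.58 at 0 h, 7.32, 8.16 and 7.86 at 2 h, and 5.51, 5.17 and 5.78 at 24 h. Cenpq, a kinetochore protein, fell by 2.14 between 24 h and 2 h after a rise of 0.68. H2ax, the histone variant phosphorylated at DNA breaks, rose by 1.16 at 2 h and fell by 1.90 afterwards. It ended 0.74 below 0 h, and counted as transient without array 1, 13, 19 or 39. Hira, a chaperone of histone H3.3, rose by 0.36 and then fell by 2.17; without array 17 or 37 it counted as a late only fall, and a second Hira probe set of like level did not pass (−0.40, limma adjusted p = 0.53). Without array 37 at 2 h, 25 of the 46 genes kept this course, and no other gene had it. The median of the 46 genes was 0.64 at 2 h, 0.18 at 6 h and −0.90 at 24 h. The rule asks for opposite signs at 2 h and 24 h, so the fall after 2 h had to exceed the early rise.

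The opposite course, a fall at 2 h followed by a rise above 0 h, was commoner, with 121 genes. With the array series as a replicate block the number was 195, of which 117 were among the 121. Ms4a6b, a membrane protein of T cells, had levels of 9.22, 8.97, 10.48 and 9.93 at 0 h, 6.11, 8.30 and 7.93 at 2 h, 9.44, 10.06 and 10.18 at 6 h, and 10.63, 12.48 and 12.02 at 24 h. It rose by 4.26 ± 0.50 (SE; limma adjusted p = 9.42e-07) between 24 h and 2 h, the widest swing among the 167 reversed genes. Its lowest 24 h array stood above the highest 0 h array. Etfbkmt, a mitochondrial lysine methyltransferase, had levels of 5.91, 5.21, 5.76 and 5.73 at 0 h, 3.45, 3.86 and 4.35 at 2 h, and 7.12, 7.92 and 8.07 at 24 h. Rassf2, a Ras-binding protein that promotes cell death in other tissues, had levels of 3.71, 2.89, 3.76 and 3.33 at 0 h, 2.64, 2.76 and 2.81 at 2 h, and 5.61, 6.11 and 5.86 at 24 h. Rabgap1l, a Rab GTPase-activating protein, rose by 3.25 after a fall of 2.29. Nrros, a chaperone of latent TGF-β, rose by 2.65 after a fall of 1.81. Spo11, known for the breaks of meiotic recombination, rose by 2.89 after a fall of 1.17.

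Several genes of this course belong to the cAMP pathway itself. Adcy6, an adenylyl cyclase that makes cAMP, had levels of 9.12, 9.41, 9.49 and 9.35 at 0 h, 8.49, 8.65 and 8.66 at 2 h, 9.46, 9.52 and 9.47 at 6 h, and 10.35, 10.59 and 10.57 at 24 h. The arrays of each time lay within 0.4 units of one another, the 2 h arrays were lowest and the 24 h arrays highest, with 6 h near 0 h. Arrb2, the arrestin that silences G-protein-coupled receptors, rose by 1.87 after a fall of 0.73; without array 36 it counted as a late only rise. Of 41 measured genes of cAMP feedback, 4 fell and then rose, 3 rose late only and 1 fell late only. Among all genes these courses took 0.976%, 3.13% and 2.96%. Across the cAMP feedback list 11 were higher and 6 lower between 24 h and 2 h, against 15.6% and 15.3% of all genes. The difference from all genes was not tested. Nfkbia, the inhibitor that holds NF-kB in the cytoplasm, had levels of 9.05, 8.89, 9.0 and 9.15 at 0 h, 8.26, 7.86 and 7.93 at 2 h, and 9.05, 10.03 and 9.66 at 24 h; without array 19 or 39 it counted as a transient fall.

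Among the patterns described here, late only rises contained the widest change between 24 h and 2 h, that of Naip5. Pparg, a lipid-sensing nuclear receptor, had levels of 4.70, 3.65, 3.62 and 3.55 at 0 h, 3.62, 3.80 and 3.78 at 2 h, 4.08, 4.59 and 3.62 at 6 h, and 7.36, 8.35 and 7.87 at 24 h. It rose by 4.13 ± 0.28 (SE; limma adjusted p = 7.57e-10) after 2 h, and its 24 h arrays stood more than 2 units above all others. Naip5, a sensor of bacterial flagellin in the inflammasome, had levels of 5.58, 3.81, 7.20 and 6.75 at 0 h, 3.93, 6.29 and 5.17 at 2 h, and 9.94, 10.24 and 10.50 at 24 h. Its 24 h arrays agreed within 0.6 units, while the 0 h arrays were spread over more than 3. Tktl1, a transketolase-like enzyme, rose by 4.72, and Scg5, a chaperone of prohormone convertase in neuroendocrine cells, by 4.43. Patj, a scaffold of epithelial polarity, rose by 4.02 ± 0.17 (SE; limma adjusted p = 1.7e-12).

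Some of these rises differed between arrays at 24 h. Cxcr6, a chemokine receptor, stood at 5.70, 9.16 and 8.70 at 24 h and at 3.23, 3.37 and 3.30 at 2 h. Wdr78, known from cilia, stood at 6.53, 10.37 and 9.73 at 24 h and at 3.29, 4.29 and 4.47 at 2 h. In both genes array 4 was lower than arrays 19 and 39 by 3 units or more, yet above every 2 h array. Over all 388 late rises the median of 24 h minus 2 h was 1.37 in the series of arrays 1 to 4, against 1.65 in series 16 to 19 and 1.58 in series 36 to 39. The sign was the same in the 3 series for 387 of the 388.

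Genes of cAMP signalling also rose late. Ramp1, which escorts the receptor for CGRP, a peptide that raises cAMP, had levels of 9.01, 8.63, 8.77 and 8.61 at 0 h, 8.48, 8.16 and 7.96 at 2 h, 9.88, 8.71 and 8.86 at 6 h, and 11.40, 11.11 and 11.22 at 24 h. Pde1b, a calcium-dependent phosphodiesterase that breaks down cyclic nucleotides, rose by 2.29 ± 0.34 (SE; limma adjusted p = 2.07e-05). Rbl2, the p130 pocket protein of resting cells, had levels of 7.28, 7.13, 7.33 and 7.51 at 0 h, 7.05, 7.72 and 7.99 at 2 h, and 8.91, 9.73 and 9.59 at 24 h. Sesn1, an inhibitor of mTORC1 induced by p53 and FoxO, rose by 2.39, Trp53inp1, a p53-induced death and autophagy protein, by 2.68, and Txnip, the thioredoxin-binding protein, by 1.83. Of 28 measured quiescence genes, 11 were higher and 2 lower between 24 h and 2 h, with a median of 0.26 against −0.06 for all genes, where 15.6% were higher and 15.3% lower. At 24 h against 0 h, 20 of the 28 were higher and 0 lower, against 16.3% each way among all genes. At 2 h against 0 h, 13 were higher and 1 lower, against 7.25% and 8.44%.

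Most measured lysosomal genes were higher at 24 h than at 2 h. Of 30 measured, 20 were higher and 1 lower between 24 h and 2 h, against 15.6% and 15.3% of all genes. The median was 0.76 (0.69, 0.79 and 0.81 in the 3 array series). By pattern, 7 were late only rises and 3 growing rises. At 2 h against 0 h, 5 were higher and 2 lower with a median of −0.03, against 7.25% and 8.44% of all genes. At 24 h against 0 h, 16 were higher and 1 lower, against 16.3% each way. Ctsa, the protective protein of lysosomal neuraminidase, had levels of 6.63, 6.42, 6.43 and 6.43 at 0 h, 6.42, 6.43 and 6.47 at 2 h, and 8.48, 8.43 and 8.32 at 24 h. Ctsd, the aspartic protease cathepsin D, rose by 1.55, and Tpp1, a tripeptidyl peptidase, by 1.57; Ctsd counted as reversed without array 17 or 19. In the list of MHC class I and peptide loading, 10 of 16 were higher and 3 lower between 24 h and 2 h, with a median of 0.64. At 2 h against 0 h, 1 was higher and 3 lower. These counts are to be read against the same shares of all genes. Tapbp, the tapasin that bridges MHC class I to the peptide transporter, had levels of 8.38, 8.20, 8.02 and 7.98 at 0 h, 8.10, 7.85 and 7.97 at 2 h, and 9.61, 10.45 and 10.19 at 24 h. Cflar, which blocks caspase-8, rose by 1.61 on its brightest probe set, and its dimmer probe sets did not pass (−0.40, −0.09 and 0.02). Of the 46 measured T-lineage genes, 19 were higher and 2 lower after 2 h, against 15.6% and 15.3% of all genes. At 2 h against 0 h, 9 of the 46 were higher and 13 lower, against 7.25% and 8.44%.

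Late only falls included many genes of the cell cycle and of biosynthesis. Ccne2, the cyclin E2 that starts S phase, had levels of 9.39, 8.91, 9.24 and 8.81 at 0 h, 9.30, 8.73 and 8.48 at 2 h, 7.42, 7.20 and 6.89 at 6 h, and 6.34, 4.97 and 5.03 at 24 h. It fell by 3.39 ± 0.28 (SE; limma adjusted p = 9.02e-09) after 2 h. Cdc6, which loads the MCM helicase on origins, had levels of 11.67, 11.53, 11.56 and 11.38 at 0 h, 11.90, 12.04 and 12.01 at 2 h, 11.34, 10.76 and 10.75 at 6 h, and 10.14, 7.47 and 8.59 at 24 h. Its 24 h arrays spanned more than 2 units, with array 4 highest, and all lay below the 6 h arrays. Cdc45, a subunit of the replicative helicase, had levels of 9.68, 9.72, 9.66 and 9.69 at 0 h, 9.89, 9.96 and 10.09 at 2 h, and 7.82, 6.29 and 7.08 at 24 h. Mcm5, a subunit of the same helicase, had levels of 12.03, 12.22, 12.21 and 12.07 at 0 h, 12.22, 12.19 and 12.20 at 2 h, and 10.94, 8.92 and 9.79 at 24 h. At 2 h the Mcm5 arrays agreed within 0.03 units and lay inside the 0 h range.

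Between 24 h and 2 h, 15.3% of all genes were lower and 15.6% higher, and 2.96% of all genes were late only falls. Of the 50 measured replication and nucleotide genes, 49 were lower between 24 h and 2 h, 0 were higher, and 40 were late only falls. The median was −1.83, with −1.11 in series 1 to 4, −2.26 in series 16 to 19 and −1.91 in series 36 to 39. At 2 h against 0 h, 2 were higher and 3 lower, and at 6 h against 0 h 3 were higher and 16 lower, where 11% of all genes were higher and 11.1% lower. Mitosis and G2/M genes were on balance not lower at 6 h. Of 61 measured, 57 were lower and 2 higher between 24 h and 2 h, with a median of −1.65 and 45 late only falls. At 6 h against 0 h, 15 of the 61 were higher and 1 lower, and the median was 0.22. Ccna2, the cyclin A2 of S phase and mitosis, had levels of 11.28, 11.41, 11.43 and 11.22 at 0 h, 11.60, 11.69 and 11.75 at 2 h, 11.06, 11.55 and 11.57 at 6 h, and 9.34, 8.75 and 9.08 at 24 h, with the 6 h arrays close to the 0 h arrays. Ercc6l, a helicase of anaphase bridges, fell by 3.34 ± 0.19 (SE; limma adjusted p = 9.82e-11), and counted as reversed without array 4.

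Regulators above these genes fell as well. Mybl2, the B-Myb activator of G2/M genes, fell by 2.74 (a dimmer probe set fell by 1.41 at 2 h and did not pass after it), and Foxm1, its partner factor, by 2.07. Skp2, the ubiquitin ligase subunit that removes the inhibitor p27, had levels of 9.35, 9.51, 9.45 and 9.37 at 0 h, 9.56, 9.35 and 9.28 at 2 h, and 7.22, 5.98 and 6.90 at 24 h. Chek1, the checkpoint kinase of S phase, fell by 2.73, and Hells, a chromatin remodeller, by 2.95. Of 28 measured G1 cyclin, Cdk and Rb/E2F genes, 14 were lower and 1 higher between 24 h and 2 h, against 15.3% and 15.6% of all genes. Ccnd3, the cyclin D3 of thymocyte growth, fell late only by 1.20, whereas Ccne1 fell in both steps, by 0.82 at 2 h and 1.10 after it; Ccne1 lost the second size limit without array 2 or 19. Of 20 measured histone and assembly genes, 16 were lower and 0 higher, against the same shares of all genes, with a median of −1.10. Asf1b, a histone chaperone of replication, fell by 2.12.

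The upstream sequences of Cdc6, Hells and Bard1 are shown for the E2F element that many S-phase genes carry. E2F factors activate such genes once Rb-family proteins release them. The elements TTTCCCGC and TTTGGCGC were searched on both strands and matches are in capitals; the sequences are again 250 bases upstream in RefSeq for GRCm38.p6. Cdc6 lies at chr11:98907901-98908150, plus strand, Hells at chr19:38930740-38930989, plus strand and Bard1 at chr1:71102973-71103222, minus strand.
Cdc6: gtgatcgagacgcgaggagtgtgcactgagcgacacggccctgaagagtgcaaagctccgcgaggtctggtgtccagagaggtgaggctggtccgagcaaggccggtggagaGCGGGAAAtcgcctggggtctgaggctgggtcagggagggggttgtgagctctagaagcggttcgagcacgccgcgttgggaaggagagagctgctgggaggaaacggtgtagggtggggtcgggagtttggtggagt
Hells: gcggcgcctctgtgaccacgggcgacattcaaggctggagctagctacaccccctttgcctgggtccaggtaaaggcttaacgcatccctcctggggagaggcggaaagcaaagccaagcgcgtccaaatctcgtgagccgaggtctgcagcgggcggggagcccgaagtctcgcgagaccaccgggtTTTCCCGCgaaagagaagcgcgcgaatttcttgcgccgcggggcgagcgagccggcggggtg
Bard1: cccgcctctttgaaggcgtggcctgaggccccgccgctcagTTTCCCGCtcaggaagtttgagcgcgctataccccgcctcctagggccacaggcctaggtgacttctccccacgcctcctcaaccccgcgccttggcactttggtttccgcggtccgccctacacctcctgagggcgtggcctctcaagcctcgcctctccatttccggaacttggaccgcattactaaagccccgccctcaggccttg
The match lies at −138 in Cdc6, on the opposite strand, at −62 in Hells and at −209 in Bard1. TTTCCCGC was held by 25 of the 304 late only falls with a window (8.22%) and by 5 of 41 genes that rose and then fell (12.2%). It was held by 1 of 320 late only rises (0.312%), by 1.79% of all measured genes and by 1.07% of all windows. TTTGGCGC was held by 10 of the 304 late only falls (3.29%) and by 0.91% of all measured genes. The CCAAT box, letters CCAAT, was held by 176 of the 304 (57.9%), 25 of the 41 rises that became falls (61%), 12 of 24 transient rises (50%), 47 of 94 sustained rises (50%) and 30 of 62 growing rises (48.4%), and by 38.1% of all measured genes. The letters TTTGAA, of the element called CHR that mitotic genes often carry, were held by 67 of the 304 (22%), 8 of those 41 (19.5%) and 9 of 25 growing falls (36%), by 2 of 91 genes that fell and then rose (2.2%), by 13% of all measured genes and by 17.9% of all windows.

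Growth and synthesis genes fell to differing degrees in each step. Among all genes, 15.3% were lower and 15.6% higher between 24 h and 2 h, and 8.44% were lower and 7.25% higher at 2 h. Of 66 measured ribosome biogenesis genes, 50 were lower and 1 higher between 24 h and 2 h, with a median of −0.70. Already at 2 h, 26 of the 66 had fallen and 0 had risen. Only 12 were late only falls and 6 were sustained falls. Nolc1, a nucleolar chaperone, fell by 1.81 after 2 h on its brightest probe set and by 2.05 on another, while the third fell by 2.21 at 2 h and differed by 0.35 after it (limma adjusted p = 0.452). Of 39 measured amino acid and tRNA synthetase genes, 32 were lower and 0 higher, median −0.97, with 16 late only falls. Shmt2, the mitochondrial serine hydroxymethyltransferase, had levels of 12.25, 12.28, 12.50 and 12.59 at 0 h, 12.10, 12.06 and 12.20 at 2 h, and 10.58, 9.02 and 9.55 at 24 h, and Mthfd2, the next enzyme of mitochondrial folate metabolism, fell by 2.13. The cytosolic enzyme Shmt1 fell by 2.63, with array 4 about 2 units above the mean of the other 24 h arrays. The Shmt1 probe sets disagreed: 2 of the 4 fell at 2 h, by 0.82 and 1.44, and did not pass after it (0.09 and −0.59). Cth, the cystathionine lyase that makes cysteine, had levels of 5.63, 4.82, 8.14 and 8.78 at 0 h, 5.10, 7.94 and 8.37 at 2 h, and 3.22, 3.59 and 3.84 at 24 h. The Cth arrays at 2 h and 0 h were spread over more than 3 units, and the SE of its fall of 3.59 ± 0.89 (SE; limma adjusted p = 0.00333) was the widest among the genes named here.

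Both lists of chaperone genes had more genes lower than higher between 24 h and 2 h. Of 29 measured cytosolic and mitochondrial chaperones, 23 were lower and 1 higher, with a median of −0.59. Fkbp4, a co-chaperone of Hsp90, fell by 1.71, and a dimmer Fkbp4 probe set did not pass (−0.05, limma adjusted p = 0.835). Of 30 measured genes of endoplasmic reticulum chaperones and the unfolded protein response, 14 were lower and 2 higher, with a median of −0.43. Against 0 h, the endoplasmic reticulum list had 10 higher and 0 lower at 2 h and 18 and 0 at 6 h. At 24 h it had 5 higher and 6 lower. The cytosolic and mitochondrial list had 2 and 2 at 2 h, 2 and 21 at 6 h, and 2 and 23 at 24 h. Among all genes, 7.25% were higher and 8.44% lower at 2 h, and 11% and 11.1% at 6 h. At 24 h against 0 h the shares were 16.3% each way. The difference between the lists was not tested. For all genes the median was 0.05 at 2 h against 0 h and −0.06 between 24 h and 2 h. Of 56 measured oxidative phosphorylation genes, 23 were lower and 3 higher, and 35 measured cytosolic ribosomal protein genes had 5 higher and 1 lower, against 15.6% higher and 15.3% lower among all genes. The remaining lists are to be read against those same shares. NF-kB and cytokine feedback, with 4 higher and 4 lower of 28, and circadian clock, with 3 and 3 of 19, lay near them. Cholesterol had 4 higher and 3 lower of 25, and Myc family 1 and 1 of 11. More genes were higher than lower among p53 targets (7 and 2 of 21) and BCL2-family and death receptor genes (12 and 2 of 34). So it was for interferon response (12 and 5 of 38) and T-cell activation (9 and 1 of 37). Glycolysis had 0 higher and 4 lower of 21.

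For the counts of 0 given above, the numbers with an unadjusted p under 0.05 in the limma fit were 0 for replication, amino acid and endoplasmic reticulum genes, and for quiescence genes at 24 h against 0 h. They were 1 for ribosome biogenesis genes higher at 2 h, 1 for histone genes higher after 2 h and 3 for glycolysis genes higher after 2 h.

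**Figure D3:**
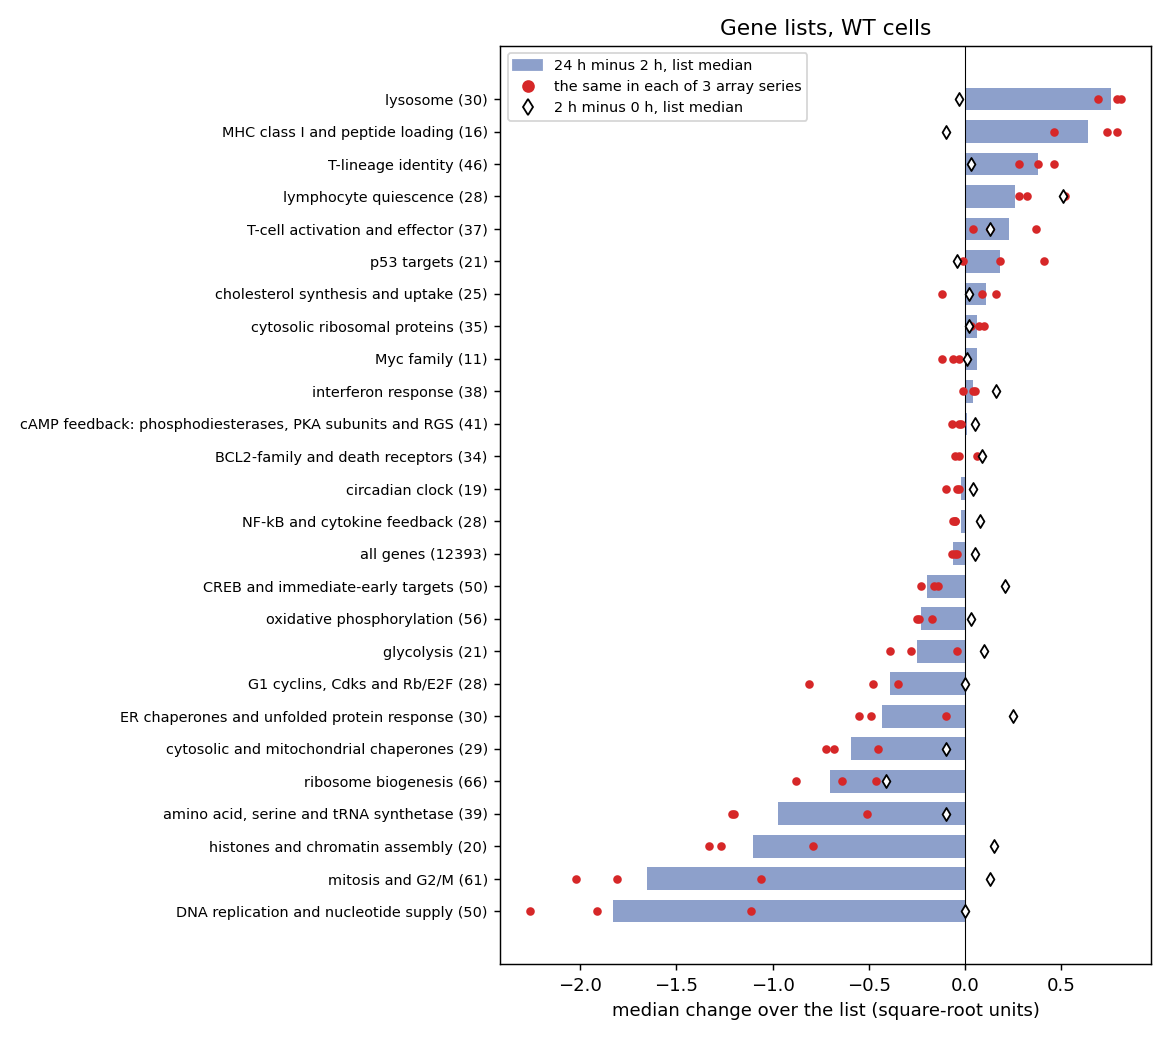
Median change between 24 h and 2 h over each gene list in WT cells (bars, square-root units; measured genes in parentheses), the same median in each of the 3 array series (filled points) and the median at 2 h against 0 h (open diamonds). DNA replication lies lowest at −1.83 with its 2 h median at 0, and lysosome highest at 0.76.

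Not every early response receded. Among the 50 measured CREB and immediate-early genes, 20 were higher and 3 lower at 2 h, against 7.25% and 8.44% of all genes. Between 24 h and 2 h, 6 were higher and 10 lower, near the 15.6% and 15.3% of all genes, with a median of −0.20. By pattern, 10 of the 50 were sustained rises, 4 partial returns and 2 transient rises. Crem had levels of 4.20, 4.09, 4.20 and 4.08 at 0 h, 10.97, 10.16 and 9.49 at 2 h, and 9.70, 10.27 and 9.58 at 24 h, with overlapping arrays at 2 h and 24 h. Another Crem probe set rose by 4.96 at 2 h and fell by 1.64 afterwards (limma adjusted p = 0.00216), so the Crem probe sets did not follow 1 course. Rgs2, which turns off G-alpha proteins, had levels of 6.53, 4.35, 5.51 and 5.04 at 0 h, 10.74, 10.76 and 10.93 at 2 h, and a mean of 10.11 ± 0.10 (SD, n = 3) at 24 h. Dusp1, the MAP kinase phosphatase shown above, had levels of 6.68, 5.42, 6.82 and 7.60 at 0 h, 10.20, 10.81 and 10.96 at 2 h, and 8.85, 10.29 and 9.80 at 24 h. The differences of Dusp1 (−1.01) and the repressor gene Nfil3 (−1.18) did not pass in the main fit (limma adjusted p of 0.131 and 0.215). They passed with the series as a replicate block (0.000821 and 0.0028) and on arrays 16 to 47 alone (0.0252 and 0.04). Dusp1 also passed with array weights (0.0426) and with a model term separating arrays 16 to 47 from the lower-numbered ones (0.00948). Neither difference passed under the remaining settings. Junb, an AP-1 subunit, stood 1.90 above 0 h at 24 h, and Cdkn1b, which encodes the Cdk inhibitor p27, 1.52 above.

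Among falls, Myc, the growth regulator, had levels of 10.14, 10.11, 11.02 and 10.71 at 0 h, 8.12, 7.74 and 8.25 at 2 h, and 8.89, 8.13 and 8.11 at 24 h, with no passed difference after 2 h. Ptcra, the alpha chain of the receptor on immature T cells, had levels of 9.26, 9.74, 8.83 and 8.75 at 0 h, 5.58, 4.54 and 3.51 at 2 h, and 4.61, 4.68 and 3.42 at 24 h. Rag1, the recombinase of antigen receptor genes, fell in both steps, by 2.69 and 1.75. Growing rises included Ctla2b, a protease inhibitor of T cells, with levels of 3.15, 2.94, 3.07 and 2.90 at 0 h, 4.76, 5.68 and 5.37 at 2 h, and 9.41, 10.15 and 9.59 at 24 h, Sgip1, an adaptor of endocytosis studied mainly in neurons, with a further rise of 1.68 that did not pass on the rescaled log2 scale (0.79, limma adjusted p = 0.0928), and the checkpoint receptor gene Ctla4, with 1.81. Bcl2l11, which encodes the BH3-only death protein Bim, had probe sets that disagreed. All 5 rose at 2 h, by 1.71 to 3.44. The brightest rose by a further 1.17 between 24 h and 2 h, 3 fell by 2.12, 1.24 and 0.85, and the fifth differed by 0.05 (limma adjusted p = 0.923). The brightest lost its size limit without array 19.

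Several other immediate-early genes did not meet the rule for a transient rise. Egr1, a zinc-finger factor of the immediate-early class, had levels of 2.27, 2.26, 2.25 and 2.27 at 0 h, 2.22, 2.31 and 2.36 at 2 h, and 2.22, 2.28 and 2.28 at 24 h. Nr4a2, the closest relative of Nr4a1, averaged 6.00 at 24 h and 6.20 at 2 h. Klf4 differed by −0.13 between 24 h and 2 h (limma adjusted p = 0.329), and Ier3 by −0.07 (0.936). Mean levels of Egr1 and Klf4, 2.3 and 3.01, lay below the first quartile of all genes (3.31), where a change may go unseen. Klf2 differed by −0.62 (limma adjusted p = 0.271, or 0.00478 with the replicate block). Ier2 fell back by 0.89 after a rise of 1.34, just under the size limit. The limit of 1 unit fell between Tor1aip2 (1.02) and Rgcc (1.00) for transient rises, and between Pdap1 and Ifrd1 (both 1.00) for late only falls.

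The 6 h means, which the rules did not use, showed how far each course had gone by then. Genes lying between their 2 h and 24 h means at 6 h numbered 27 of 30 transient rises, 43 of 49 transient falls, 41 of 46 rises that became falls, 118 of 121 falls that became rises, 350 of 388 late rises and 292 of 367 late falls. The median share of the 24 h minus 2 h change already made at 6 h was 52.2% in transient rises, 54.9% in transient falls and 51.8% in falls that became rises. It was smaller in late rises (40.4%), in rises that became falls (30%) and in late falls (27.4%). At 6 h against 2 h, 14% of all genes passed in either direction; among the members, 17 of the 30 transient rises, 99 of the 121 falls that became rises, 190 of the 388 late rises and 138 of the 367 late falls did. At 24 h against 6 h, 19.7% of all genes passed, as did 16 of those 30, 101 of those 121, 292 of those 388 and 299 of those 367. Both comparisons share arrays with the sorting, so these counts describe the course.

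Kin- cells were compared over the same interval. Their means were not used by the rules, but their arrays share the pooled spread. Between 24 h and 2 h, 0 genes passed in Kin- cells (0% of 12393) by limma; 384 of the 22626 probe sets had an unadjusted p under 0.05 (1.7%), and the smallest adjusted p was 0.057. None of the 1001 genes passed there. Their median Kin- change was −0.06 for transient rises, 0.01 for transient falls, 0 for rises that became falls, 0.01 for falls that became rises, 0.01 for late rises and −0.01 for late falls. The widest Kin- changes were 1.12 and −0.57, both in late rises. The difference between the WT and the Kin- change was tested itself and passed for 20.8% of all genes. It passed for 26 of the 30 transient rises, 46 of the 49 transient falls, 46 of the 46 rises that became falls, 121 of the 121 falls that became rises, 356 of the 388 late rises and 346 of the 367 late falls. Partial returns passed in 12 of 15 and 4 of 4 genes. The WT part of this difference was used in the sorting, so these shares are a description. Nr4a1 differed by −0.08 in Kin- cells, Fos by 0.29, Bard1 by −0.12, Ms4a6b by 0.11, Pparg by 0.09 and Ccne2 by −0.09.

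**Figure D4:**
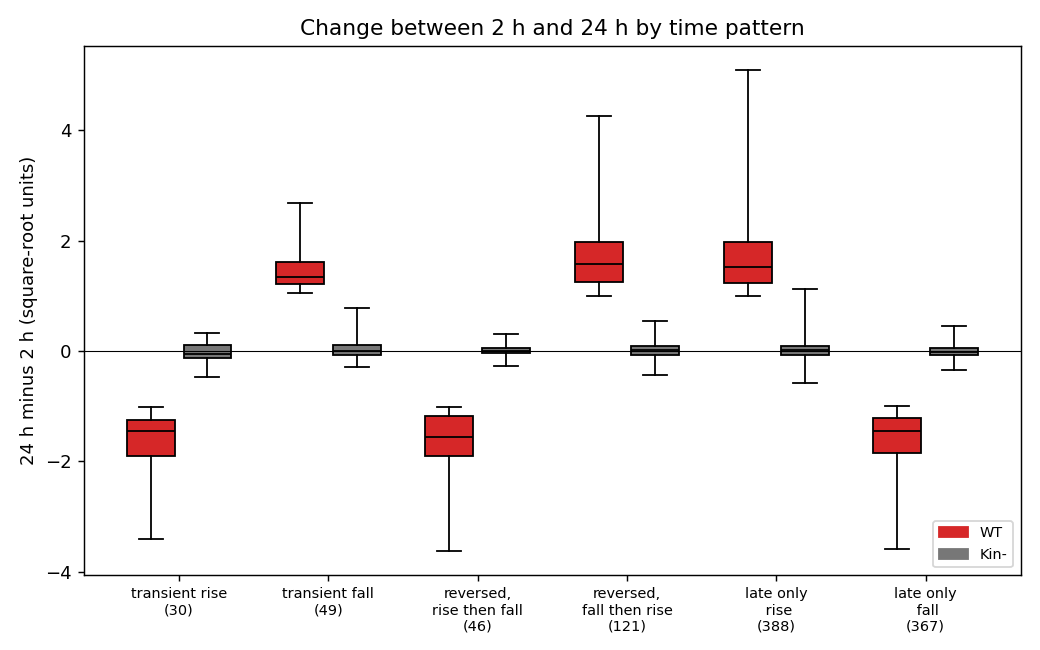
Change between 24 h and 2 h (square-root units) over the genes of each time pattern, for WT cells and, beside them, Kin- cells; boxes give quartiles, whiskers the full range, and numbers the genes. WT boxes lie beyond 1 unit because the rule asks for it, while Kin- boxes lie around 0.

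Markers of the T lineage identified the cells. Of 9 measured T-cell markers 8 lay above the median level of all genes, 6.07. Their summed level was 89.5 to 91 at 0 h, 86.4 to 88.1 at 2 h and 91 to 93.6 at 24 h. Cd3d, Cd3g and Cd247, chains of the T-cell receptor complex, rose by 0.96, 1.20 and 1.22 after 2 h. Cd3e, another chain, rose by 0.86, close to the threshold (limma adjusted p = 0.0483). The other measured members did not pass after 2 h. Thy1 averaged 12.9 at 0 h, 11.9 at 2 h and 12.1 at 24 h. Cd2 averaged 7.0, 5.4 and 5.7 at those times, and neither passed after 2 h (limma adjusted p of 0.485 and 0.525). Cd5 was low, at 3.2 at 2 h and 3.1 at 24 h. Myeloid markers, averaged over arrays, were all below that median, though Itgam on arrays 19 and 39 and Fcgr3 on array 19 exceeded it at 24 h; the list had sums of 31.3 to 32 at 0 h, 31.7 to 32.5 at 2 h and 33.3 to 38 at 24 h. Of these 8, Itgam, an integrin chain, and Fcgr3, an Fc receptor, were late only rises, and Adgre1 was lower; Itgam stood at 5.44, 7.42 and 6.96 at 24 h and at 4.44, 4.59 and 4.26 at 2 h. Fcgr3 stood at 4.09, 6.16 and 3.89 at 24 h and at 2.79, 2.88 and 2.90 at 2 h, and its rise of 1.86 was 1.13 without array 19. Of 7 B-cell markers 1 lay above the median and 1, Cd22, rose by 0.70 between 24 h and 2 h (limma adjusted p = 0.00441), with sums of 27.6 to 27.9 at 0 h, 28.4 to 29 at 2 h and 28.3 to 29.2 at 24 h. Erythroid sums were 15.7 to 15.7 at 24 h, 15.7 to 15.9 at 2 h, and fibroblast sums 17.2 to 19.2 at 24 h and 18 to 19.1 at 2 h, with no marker of either passing in the limma fit and 0 with an unadjusted p under 0.05. The part of any such cells in the late rises was not tested.

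Arrays numbered 1 to 14 stood apart from those numbered 16 to 47, where the root mean square difference of 2 arrays in 1 group had a median of 0.354 across these sets and 0.233 within them. WT arrays at 24 h and 2 h each held 1 of the first set and 2 of the second. Within the first series, falls were smaller: the median of the 367 late falls was −1.05 in series 1 to 4, against −1.82 in series 16 to 19 and −1.59 in series 36 to 39, with the same sign in all 3 series for 366 of them. The sign was also the same in the 3 series for the 30 transient rises, 49 transient falls, 46 rises that became falls and 121 falls that became rises. Other probe sets of the same genes passed in the same direction between 24 h and 2 h for 5 of 16 (transient rises), 8 of 29 (transient falls), 25 of 46 (rises that became falls), 45 of 97 (falls that became rises), 173 of 323 (late rises) and 217 of 314 (late falls), and in the opposite direction for 1, 0, 4, 4, 8 and 4. Of the 93 genes named above that belong to a pattern, 78 kept it whichever 1 of the 10 arrays was left out. On a log2 scale of the deposited values, rescaled to the same spread, the size limits were met by 180 late rises and 130 late falls, 167 and 125 of them among those found with square roots.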

How the data were processed

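The series holds 26 arrays, each with 22626 probe sets of oligonucleotides. The authors deposited 1 score per probe set and array in a single table; the method behind them is not given in the sources used here, nor is their scale. The lowest score is 0.375 and the highest 267; array medians lie between 29.1 and 30.6. Their square root, from 0.612 to 16.4, was used as a log2-like level without further normalization. Groups and array numbers came from the labels.

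A model with 1 mean for each of the 8 groups was fitted to every probe set of all 26 arrays by lmFit and eBayes of limma 3.58.1 (R 4.3.3), without covariates, with Benjamini-Hochberg adjustment over all probe sets. The median SE of 24 h minus 2 h was 0.127. The fitting code was tested on simulated data. The probe set with the highest mean stood for a gene; 4956 genes had several, 691 probe sets with several symbols and 1555 with none were named for no gene.

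The members, the 30 gene lists and the tests were chosen with earlier results of these data known. The genes named are those with the largest change between 24 h and 2 h in each pattern, up to 4 passed members per list, and a panel of genes known for cAMP response in lymphocytes.

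WT arrays 1 to 4, 16 to 19 and 36 to 39 follow the times in order. Within these series, deviations from the group means at 24 h and 2 h correlated at 0.51, 0.27 and 0.30 across probe sets, so the series were tried as a block. Other alternatives changed the scale, normalization, arrays, filter, size limit and probe set. Upstream sequences are those of RefSeq for GRCm38.p6, matched by symbol.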

Additional observations from a re-analysis of the deposited data

Results flagged for a closer look

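The change between 24 h and 2 h differed between WT and Kin- cells for 4385 probe sets by the test of the difference itself. Among the sorted genes it differed for 26 transient rises, 46 transient falls, 46 rises that became falls, 121 falls that became rises, 356 late only rises and 346 late only falls. Kin- cells had 0 genes passed over that interval by limma, with 384 probe sets at an unadjusted p under 0.05.

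Of the 2246 probe sets with no gene name or several, which the gene counts leave out, 497 passed in WT cells between 24 h and 2 h and 0 in Kin- cells.

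Among the 4 untreated WT arrays, single arrays stood apart for 5 of the 102 genes examined; chance alone gives about 1 in 20. Bcl6 was 5.37 on array 13, against 6.25 on the nearest array. Zfp36 was 6.64 on array 36, against 6.71. Pparg was 4.70 on array 1, against 3.65. Ctsa was 6.63 on array 1, against 6.43. Fcgr3 was 2.93 on array 36, against 2.81.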

How the results depend on the processing

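Of 186 counts under alternative settings, of probe sets higher or lower between 24 h and 2 h and of genes in the transient, reversed and late only patterns, 155 stayed within 1.5 times of the reported ones; the cause of the other changes was not tested. On a rescaled log2 scale there were 22 transient falls, 19 rises that became falls, 61 falls that became rises, 180 late rises and 130 late falls. With the spread taken from 13 or 10 WT arrays, rises that became falls numbered 30 and 28. The array series as a replicate block gave 195 falls that became rises, and array weights gave 5651 lower probe sets, 97 rises that became falls and 212 falls that became rises. Arrays 1 to 14 alone have fewer arrays and gave 1054 higher and 939 lower probe sets, 9 transient rises, 11 transient falls, 1 rise that became a fall, 9 falls that became rises, 205 late rises and 149 late falls. Without a size limit, and with a limit of 0.5, which both admit smaller changes, there were 219 and 113 transient rises, 281 and 196 transient falls, 1078 and 847 late rises, and 1153 and 881 late falls. With the probe set of smallest p for each gene there were 55 transient rises, 78 transient falls and 81 rises that became falls.

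Leaving out 1 of the 10 WT arrays at a time gave 2683 to 3183 higher and 3051 to 4113 lower probe sets, 27 to 39 transient rises, 46 to 58 transient falls, 25 to 68 rises that became falls, 100 to 147 falls that became rises, 332 to 455 late rises and 272 to 436 late falls. For the 102 genes examined, 2076 of 2125 values of 24 h minus 2 h stayed on their side of the threshold, 40 lost the call, 9 gained it and 0 changed sign. Beyond Dusp1, Nfil3 and Klf2, the block changed no call of these genes. The number of arrays, 3 for each treated group, limits what can be detected.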
